A study of Mus musculus with 171 samples.

Results

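Mitochondrial ribosomal protein genes were described across early mouse embryos that carried or lacked Stat3. The members are all gene entries of the deposited count table whose Ensembl identifier maps to a protein-coding mouse gene with a symbol that starts with Mrpl or Mrps and a number. This choice gave 78 genes of 49671 in the table, 49 with an Mrpl symbol and 29 with an Mrps symbol, and no expression value entered it. The series measured RNA in 171 single cells, and the question its design sets is how cells without STAT3, the transcription factor downstream of LIF, differ from wild-type cells.

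The 6 groups are inner cell mass (ICM) at embryonic day (E) 3.5 and epiblast (EPI) and primitive endoderm (PrE) at E3.75, each from wild-type (WT, Stat3 +/+) and Stat3-null (MUT, Stat3 -/-) embryos. The EPI forms the fetus and the PrE forms yolk sac endoderm. WT embryos gave 64 ICM cells (5 embryos), 19 EPI cells (3 embryos) and 10 PrE cells (3 embryos). MUT embryos gave 55 ICM cells (5 embryos), 9 EPI cells (4 embryos) and 14 PrE cells (4 embryos). The labels used here name no strain, treatment or extent of the deletion. For the EPI and PrE cells the source label names the earlier stage and the titles E3.75; the titles were followed. Each title also holds a letter of unstated meaning, 5 letters at E3.5 and 3 others at E3.75, so stage and letter cannot be told apart. At E3.75, letter B holds only MUT embryos (1 and 2), letter C only WT embryos (1 and 2), and letter A both. By their Y-linked and Xist counts, all 4 MUT embryos there are male and 2 of the 3 WT embryos female, so genotype is partly tied to letter and sex in EPI and PrE. By the same counts, MUT ICM embryos 2, 10, 18 and 24 are female and 23 is male. WT ICM embryos 13, 16 and 20 are male, and 21 and 22 are female, so sex is uneven between genotypes there too. Cells are not replicates, so counts were summed per embryo and lineage into 24 sums of 17 embryos. Levels are counts per 1000000 counts (CPM) after scaling between sums.

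The mitochondrial ribosome translates the few messenger RNAs of the mitochondrial genome, all of which encode subunits of the respiratory chain and ATP synthase. It has a large (39S) and a small (28S) subunit, built from mitochondrially encoded 16S and 12S ribosomal RNA and from proteins that are encoded in the nucleus, made in the cytosol and imported. Some of these proteins descend from bacterial ribosomal proteins and others exist only in mitochondria. By those families 48 members belong to bacterial protein families and 30 are specific to mitochondria. Symbols do not always give the place in the particle: the Mrps30 (mL65) and Mrps18a (mL66) proteins sit in the large subunit, and the Mrps36 product is now regarded as a subunit of the α-ketoglutarate dehydrogenase complex.

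Depth ran from 163822 to 25095390 counts per E3.5 cell and from 7528770 to 14767390 per E3.75 cell, and from 8117787 to 122331780 per sum. Stat3 itself was at 44.9 to 102 CPM in WT ICM embryos and 0.121 to 13.2 in MUT ICM embryos, at 87.0 to 164 in WT and 0.0292 to 26.04 in MUT EPI, and at 24.9 to 133 in WT and 9.79 to 21.2 in MUT PrE, without overlap. Defining markers of EPI (10 genes) summed to 3736 to 4886 CPM in WT EPI and 1868 to 3452 in MUT EPI, and those of PrE (10 genes) to 3650 to 5949 in MUT PrE. The PrE sum of WT embryo 1 went partly against its label, with 1324 CPM of PrE markers (4114 and 4714 in the others) and 4387 CPM of trophectoderm markers (118 and 404 in the others). It also held 1929 CPM of EPI markers (854 and 237 in the others). The PrE sum of MUT embryo 2 held 1236 CPM of trophectoderm markers, against 147 to 488 in the other MUT PrE sums. MUT EPI embryo 2 and WT PrE embryo 3 each rest on 1 cell. ICM sums of MUT embryo 10 held 4280 CPM of PrE markers, against 200 to 1507 in the other MUT ICM embryos. Labels do not say that embryos came from separate litters, so p-values measure the spread between these embryos.

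All 78 genes had counts in all 24 sums, and all passed the low-count filter in every comparison. Together they took 0.906% of all counts. The mean level over the 6 groups had a median of 92.6 CPM among members, with quartiles at 76.2 and 141 CPM and extremes at 1.26 and 353 CPM. Per kilobase of exon, which allows genes to be compared with each other, the median was 38.2 CPM per kb. Most of their products enter the particle in 1 copy each, and Mrpl12 in several.

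Per kilobase, the highest member was Mrpl18 with 182 CPM per kb. Next came Mrpl12 with 175, the L7/L12 stalk protein that contacts elongation factors and is present in several copies. Mrpl2, the uL2m protein near the peptidyl transferase centre, had 161.5. The exit tunnel protein Mrpl22 had 141 and Mrpl28 had 141. All 5 are large subunit genes of bacterial families.

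The lowest member per kilobase was Mrpl53 with 1.599 CPM per kb, followed by Mrpl48 with 7.31, the exit tunnel protein Mrpl23 with 8.57, Mrpl33 with 10.4 and Mrps35 with 11.2. Low values partly follow from the length used: with the longest annotated transcript in place of all exons, Mrpl53 and Mrpl23 stayed at ranks 78 and 77 of 78, and Mrpl33 moved to rank 59. Mrpl53 (GRCm38 chr6:83109040-83109939, + strand) is also the member whose exons overlap other genes most, with 88.0% of its exon bases shared with Ccdc142os and Gm42688. The counts do not show how reads in shared exons were assigned. Exons of 33 members overlapped another gene, and after Mrpl53 the most shared were Mrps34 (77.8%) and Mrps25 (69.8%).

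A genomic feature that the symbol rule did not use was more frequent among the members than among all protein-coding genes. Of the 78 genes, 33 (42.3%) start within 1000 bp of another gene's start on the opposite strand, against 2364 of 21811 protein-coding genes in the table (10.8%). Mrpl46 and Mrps11, one protein of each subunit, start 412 bp apart from each other on chromosome 7, and both count among the 33. Mrps12, the decoding-centre protein, faces Sars2, the mitochondrial seryl-tRNA synthetase, at 172 bp, and Mrpl36 faces the complex I gene Ndufs6 at 29 bp.

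Summed over all members, the level was 11292 ± 2036 CPM (mean ± SD, n = 5 embryos) in WT ICM and 9516 ± 3579 (n = 5) in MUT ICM. It was 8399 ± 308 (n = 3) in WT EPI, 8395 ± 759 (n = 4) in MUT EPI, 8303 ± 1030 (n = 3) in WT PrE and 8091 ± 681 (n = 4) in MUT PrE. Over single cells the median summed level was 9542 CPM in WT ICM, 6545 in MUT ICM, 9412 in WT EPI, 9143 in MUT EPI, 8428 in WT PrE and 8906 in MUT PrE, so MUT ICM was lowest by the median cell. WT ICM embryos ran from 8419 to 13718 CPM and overlapped the E3.75 sums at their lower end. The MUT ICM mean depends on embryo 10, which stood at 3660 CPM while the other 4 lay between 8519 and 12249. The 49 Mrpl genes took 2.43 to 2.75 times the summed CPM of the 29 Mrps genes in WT ICM and 1.82 to 2.44 times in MUT ICM, ranges that overlapped only at their edges. At E3.75 the mean ratio was 2.17 in WT EPI, 2.16 in MUT EPI, 2.30 in WT PrE and 2.16 in MUT PrE. Summed levels cannot tell more RNA per cell from a different mix of cells.

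**Figure D1:**
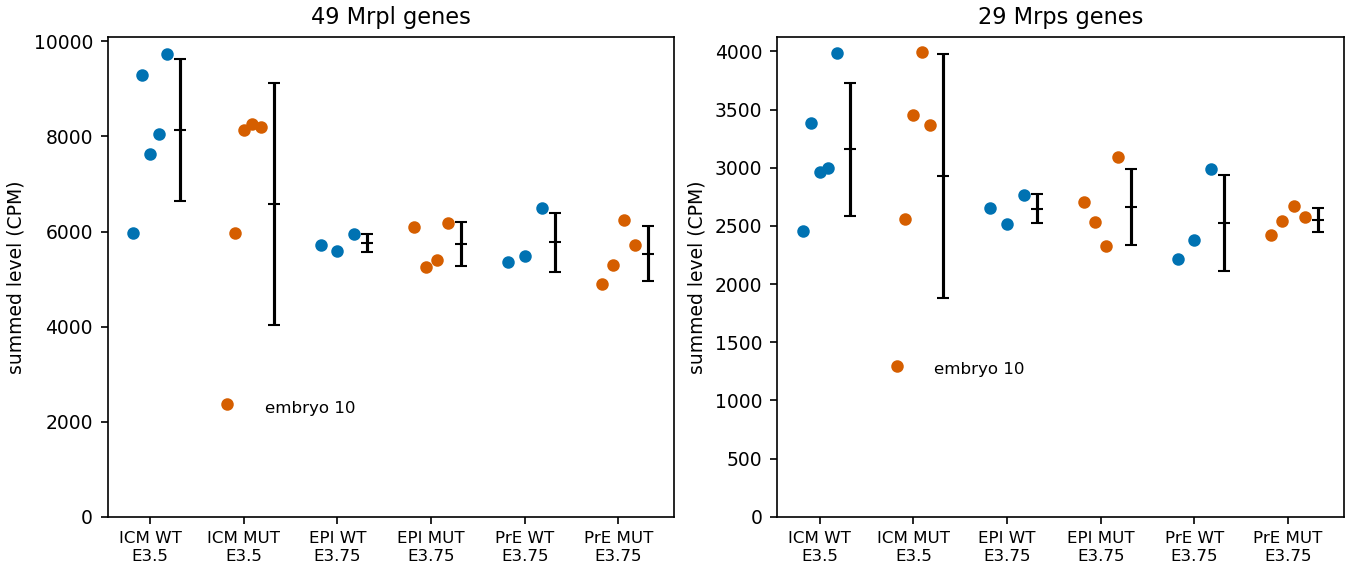
Summed level (CPM) of the 49 Mrpl genes (left) and the 29 Mrps genes (right) in each embryo, by group; points are embryos, blue for WT and orange for MUT, and bars give mean ± SD. MUT ICM embryo 10 lies below every other embryo in both panels, and the 4 groups at E3.75 lie close together.

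Embryo 10 was the lowest of the 5 MUT ICM embryos for 61 of 78 members and the lowest of all 10 ICM embryos for 53. Other large complexes were low there too: embryo 10 was the lowest MUT ICM embryo for 77 of 79 cytoplasmic ribosomal protein genes and 66 of 85 nuclear genes of oxidative phosphorylation, but for only 2 of 30 genes of mitochondrial ribosome assembly. The same count over all genes is not given here, so a shift of the whole sum cannot be told from a trait of these lists. Embryo 10 has 19 cells, 88167705 counts and a median of 10029 genes detected per cell, against 7902 to 9354 in the other MUT ICM embryos. Its PrE markers, given above, were high as well; their part in the low values was not tested.

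Group means lay closer together in some members than in others. The ratio of the highest to the lowest of the 6 group means had a median of 2.03 and exceeded 2 in 41 of 78 genes. It was smallest in Mrpl20 (1.24), Mrps18a (1.27), Mrpl34 (1.30), Mrps12 (1.31) and Mrpl12 (1.315). It was largest in Mrps30, at 16.4, followed by Mrps24 at 8.79 and Mrpl49 at 4.32. These orders were read from the values and carry no test. A small ratio of group means does not mean that embryos were alike. Within MUT ICM, Mrpl20 ran from 35.6 to 252 CPM, Mrps18a from 29.7 to 222 and Mrpl12 from 93.0 to 374.6. The same ratio over all genes is not given here.

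**Figure D2:**
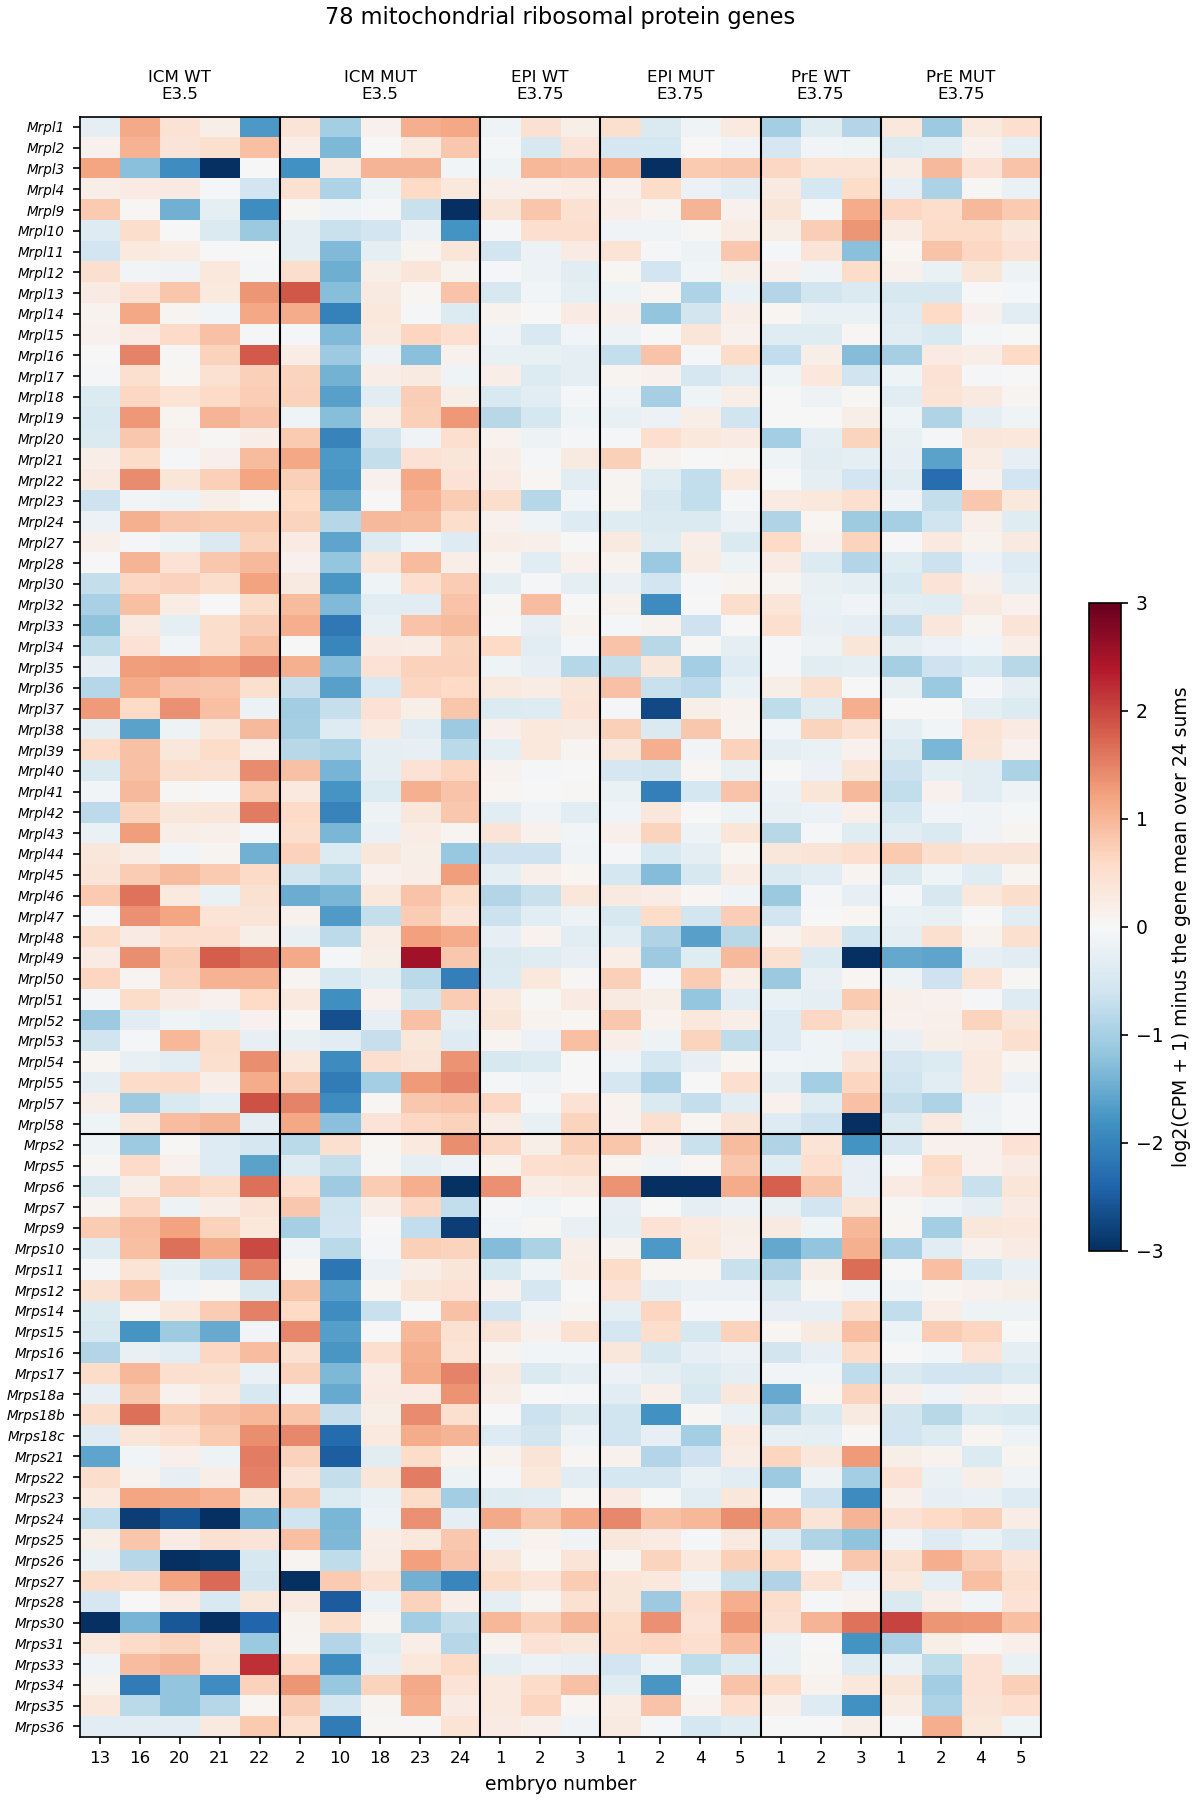
Level of each of the 78 genes (vertical, Mrpl above the line and Mrps below it) in each of the 24 sums (horizontal, embryo number within group), as log2(CPM + 1) minus the gene's mean over the sums; red is higher and blue lower, and colours saturate at 3. MUT ICM embryo 10 forms a blue column, and Mrps30 and Mrps24 are blue in all 5 WT ICM embryos.

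The first comparison asks what loss of Stat3 does in the ICM. No member passed the threshold: edgeR's quasi-likelihood test called 0 of 78 members at an adjusted p under 0.05, and 0 of 12270 genes in all (0%). At an unadjusted p under 0.05 stood 8 members, 4 higher and 4 lower in MUT, against 6.64% of all genes. Groups did not overlap for 4 members (1 higher, 3 lower), against 1.66% of all genes. Both were larger shares of the members than of all genes. The counts are small and the members come from the same embryos, so nothing is read from these shares. The median log2 fold change of the members was -0.20, with 27 of 78 above 0, against -0.054 for all genes tested. It was -0.25 for the Mrpl genes and -0.036 for the Mrps genes. For cytoplasmic ribosomal proteins it was -0.0017 and for nuclear oxidative phosphorylation genes -0.0010. Without embryo 10 the members' median was 0.075, so its sign rests on that embryo. In the same sums the 10 EPI and naive markers summed to 3323 to 4979 CPM in WT and 1022 to 1569 in MUT, without overlap. The other marker sets overlapped between genotypes. The 10 PrE markers summed to 418 to 1302 CPM in WT and 200 to 4280 in MUT. The 10 trophectoderm markers summed to 268 to 498 and 190 to 529 CPM. The part of these markers in the members' values was not tested.

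The largest differences were of both signs. The 4 members named here are the 2 with the smallest p in each direction: Mrps30 and Mrps24, with higher CPM in MUT, and Mrps9 and Mrpl39, with lower CPM. Their promoters are shown for comparison, and whether any letters go with the direction was not tested. Each is the 250 bases upstream of the RefSeq start (GRCm38.p6), read 5′ to 3′ on the gene's strand: Mrps30 at chr13:118387253-118387502 (- strand), Mrps24 at chr11:5707702-5707951 (-), Mrps9 at chr1:42850983-42851232 (+) and Mrpl39 at chr16:84735245-84735494 (-). For Mrps24 and Mrpl39 the RefSeq start lies inside the gene as GENCODE draws it. Capitals mark matches to the NRF1 motif (GCGC, any 2 bases, then GCGC); the match in Mrps9 runs on past the last base shown. CCAAT in Mrps30, Mrps9 and Mrpl39 and TATAAA in Mrps24, on either strand, are left in lower case.
Mrps30: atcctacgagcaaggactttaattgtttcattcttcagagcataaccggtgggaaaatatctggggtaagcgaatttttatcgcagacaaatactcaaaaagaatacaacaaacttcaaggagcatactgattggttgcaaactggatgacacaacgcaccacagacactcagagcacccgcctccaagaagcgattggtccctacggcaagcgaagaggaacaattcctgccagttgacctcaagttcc
Mrps24: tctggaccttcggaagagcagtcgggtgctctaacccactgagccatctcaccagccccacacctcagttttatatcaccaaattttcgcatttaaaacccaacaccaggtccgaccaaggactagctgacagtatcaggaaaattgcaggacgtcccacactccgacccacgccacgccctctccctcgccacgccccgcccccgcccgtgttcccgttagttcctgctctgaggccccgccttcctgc
Mrps9: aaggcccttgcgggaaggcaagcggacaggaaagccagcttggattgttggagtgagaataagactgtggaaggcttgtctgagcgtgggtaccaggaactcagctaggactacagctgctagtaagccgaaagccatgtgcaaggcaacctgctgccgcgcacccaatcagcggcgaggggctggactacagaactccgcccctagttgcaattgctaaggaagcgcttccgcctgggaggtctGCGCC
Mrpl39: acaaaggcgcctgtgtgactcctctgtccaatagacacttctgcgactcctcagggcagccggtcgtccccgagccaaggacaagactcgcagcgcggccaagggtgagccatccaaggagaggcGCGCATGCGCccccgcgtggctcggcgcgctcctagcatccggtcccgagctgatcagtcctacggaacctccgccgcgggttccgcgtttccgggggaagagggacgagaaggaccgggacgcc
Mrps30 and Mrps24 hold no such match, but each has the YY1 letters AANATGGCG just after the start, from transcribed base 16 and 37. The 30 bases around that match, in capitals, lie at chr13:118387218-118387247 and chr11:5707652-5707681.
Mrps30 start: gcggcgggcgAAAATGGCGgcggccaggta
Mrps24 start: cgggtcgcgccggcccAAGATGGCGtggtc

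Over the members as a whole, RefSeq promoters of 250 bases before to 50 after the start were found for 69 of the 78 genes (75 promoters) and compared with all 32851 promoters of the same set, on both strands. All promoters together cover 27025 genes, more than the 21811 protein-coding genes of the count table. They were not matched to the members for level or GC content, so the differences are not shown to be particular to the members. The NRF1 letters occurred in 18.7% of the members' promoters and 6.23% of all, the ETS letters CCGGAAG in 34.7% and 8.86%, and AANATGGCG in 14.7% and 2.38%. The STAT letters TTCCNGGAA occurred in 2.67% and 1.15%, in Mrpl30 and Mrpl50. CACGTG occurred in 9.33% and 7.15%, CCAAT in 40.0% and 37.4%, and TATAAA in 6.67% and 13.6%. The members' promoters had a median GC content of 58.7%, against 52.7%. In the ICM genotype comparison, AANATGGCG was found in members of both directions. Besides Mrps30 and Mrps24 it occurred in Mrpl58 and Mrps18a, with positive log2 fold changes. It also occurred in Mrpl27, Mrpl35, Mrpl36, Mrpl37, Mrpl42, Mrps11 and Mrps27, with negative ones. Among other members with an unadjusted edgeR p under 0.05, Mrps26 (1.64) held the NRF1 letters. Mrps15 (1.47), Mrpl50 (-1.31) and Mrpl16 (-1.32) did not. A match of letters is not evidence of binding.

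Mrps30 encodes a mitochondria-specific protein (mL65) that lies in the large subunit despite its name. The gene lies at GRCm38 chr13:118378381-118387252 on the - strand, and 9.35% of its exon bases overlap B430218F22Rik on the other strand. In the 5 WT ICM embryos its level was 6.90, 22.6, 9.72, 1.47 and 10.99 CPM, and in the 5 MUT ICM embryos 65.9, 88.7, 65.3, 29.5 and 37.0 CPM. The groups did not overlap, with all MUT embryos higher. The log2 fold change was 2.46 (SE 0.731), with an unadjusted p of 0.00429 and an edgeR adjusted p of 0.727. Leaving out single embryos kept it between 2.17 and 2.94, with adjusted p values above the threshold. DESeq2 called Mrps30 (log2 fold change 2.54, DESeq2 adjusted p = 0.0144).

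Mrps24 encodes uS3m, a bacterial-family protein of the small subunit at the mRNA entry site. The gene lies at chr11:5703983-5715680 on the - strand and shares 15.4% of its exon bases with Urgcp. Its WT ICM levels were 52.8, 11.7, 13.8, 6.72 and 30.8 CPM and its MUT ICM levels 58.4, 33.5, 79.9, 231 and 71.6 CPM. Means were 23.2 and 94.9 CPM, but the groups overlapped, since MUT embryo 10 (33.5) lay below WT embryo 13 (52.8). The log2 fold change was 2.06 (SE 0.71; unadjusted p = 0.011; edgeR adjusted p = 0.727). Without MUT embryo 23, at 231 CPM, it was 1.35.

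Mrps9 encodes uS9m, a bacterial-family protein in the head of the small subunit. It stood at 132, 147, 180, 126 and 96.7 CPM in WT ICM and at 37.8, 51.0, 77.1, 46.0 and 9.95 CPM in MUT ICM. Each MUT embryo was below each WT embryo, with a log2 fold change of -1.63 (SE 0.498; unadjusted p = 0.00517; edgeR adjusted p = 0.727).

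Mrpl39 encodes mL39, a mitochondria-specific protein of the large subunit. Its levels were 228, 276, 190, 220 and 173 CPM in WT ICM and 83.7, 77.3, 123, 127 and 84.8 CPM in MUT ICM, again without overlap. The log2 fold change was -1.12 (SE 0.352; unadjusted p = 0.00606; edgeR adjusted p = 0.727). The 4 further members with an unadjusted p under 0.05, named after their values were seen, were Mrps26 (log2 fold change 1.64) and Mrps15 (1.47), Mrpl50 (-1.31) and Mrpl16 (-1.32).

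**Figure D3:**
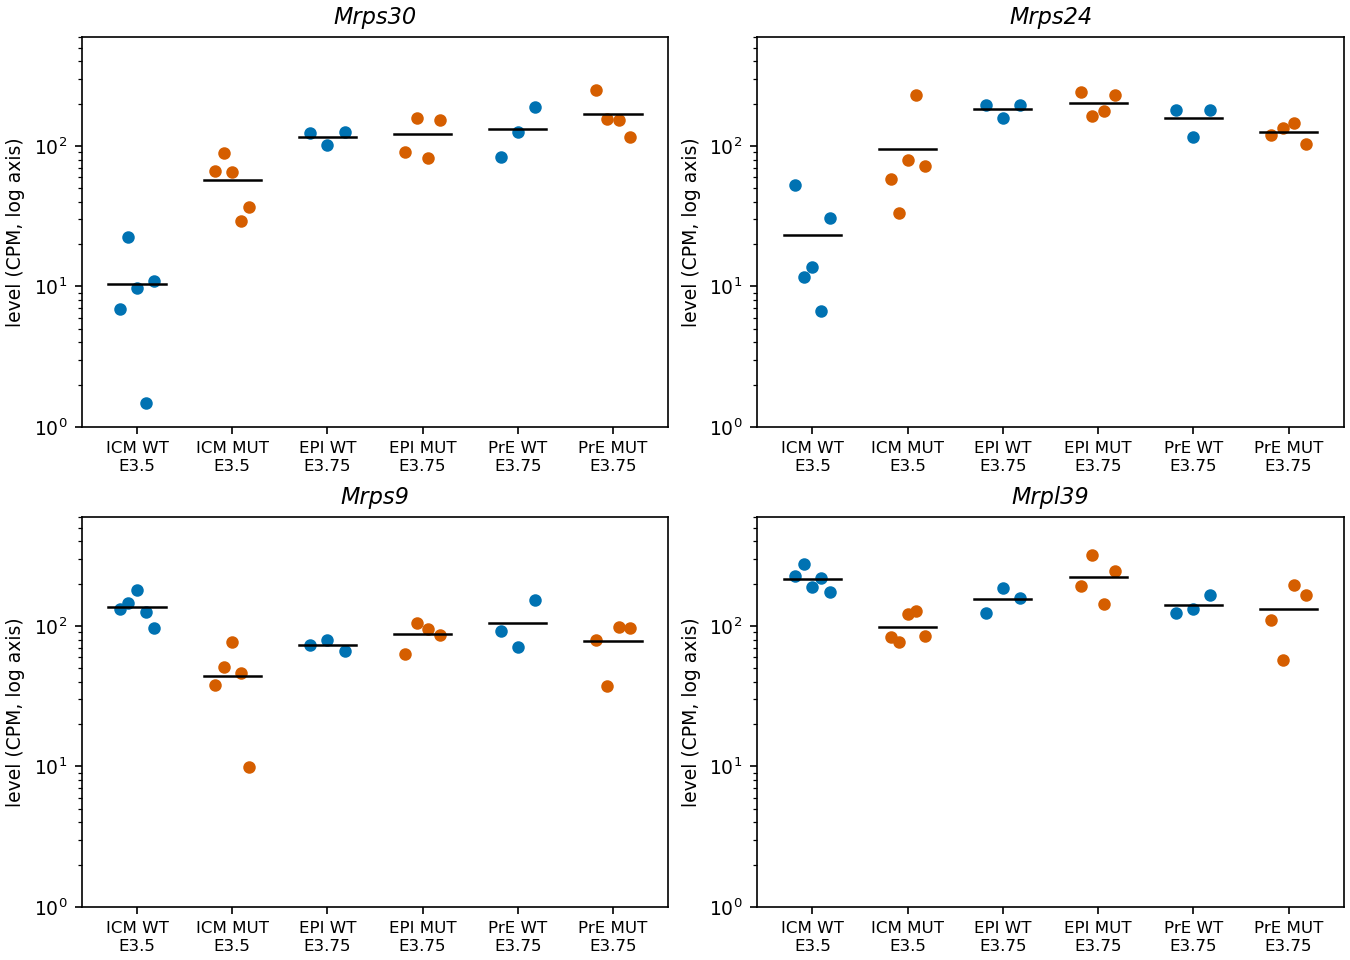
Level (CPM, log axis) of Mrps30, Mrps24, Mrps9 and Mrpl39 in each embryo by group; points are embryos, blue for WT and orange for MUT, and lines are group means. In ICM the 5 MUT embryos lie above the WT embryos for Mrps30 and below them for Mrps9 and Mrpl39, and for Mrps24 the groups overlap.

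Title letters divide the E3.5 cells across both genotypes, so the ICM difference could be read within each letter. For the 5 letters D to H, the median Mrps30 level over MUT cells was 32.7, 68.9, 147, 18.4 and 17.5 CPM, and over WT cells 0.260, 0.625, 0.470, 0.598 and 2.12 CPM. MUT cells had the higher median of Mrps30 and of Mrps24, and the lower median of Mrps9 and of Mrpl39, within 5 of 5 letters. These genes were chosen for this same comparison and the letters divide cells of the same 10 embryos, so this is a description and no further support. Some letters are thin, with 3 WT cells under G and 6 MUT cells under F. Fitted with the letter as a term and the embryo as a random block (limma-voom), 5 members were called, with Mrps30, Mrps24, Mrps26 and Mrpl3 higher and Mrpl39 lower in MUT, as were 598 of 12270 genes (4.87%). In that fit the members' median was -0.63 while that of all genes was 0.48.

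Single cells gave the same order as the sums, which are totals of these same cells. Mrps30 and Mrps24 were chosen for this comparison, so the cell counts are a description and no further support. In WT ICM, 36 of 64 cells had Mrps30 under 1 CPM, with a median of 0.582 CPM and a highest cell at 140. In MUT ICM this held for 5 of 55 cells, with a median of 39.9 and a highest cell at 366. Mrps24 was under 1 CPM in 30 of 64 WT and 2 of 55 MUT ICM cells, with medians of 1.35 and 40.2 CPM. With each cell thinned to 1000000 reads, 31 of 61 WT and 3 of 47 MUT cells had no Mrps30 read, and 24 of 61 and 1 of 47 no Mrps24 read. At E3.75 no cell of the 4 groups was under 1 CPM for either gene. In WT ICM, sums therefore average cells with and without detected transcript.

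Other members shared this pattern, chosen here by a share of at least 20% of WT ICM cells under 1 CPM, which was set after the values were seen and carries no test. There were 11 such genes: besides Mrps30 and Mrps24 they were Mrpl53 (39 of 64 WT cells and 39 of 55 MUT cells), Mrps34 (33 and 2), Mrps26 (28 and 2), Mrpl3 (26 and 3), Mrps15 (22 and 6), Mrps6 (22 and 18), Mrpl9 (15 and 4), Mrps27 (14 and 8) and Mrpl38 (13 and 3). Mrps6 was under 1 CPM in 34.4% of WT and 32.7% of MUT cells, and Mrpl53 in 60.9% and 70.9%. Their median ICM log2 fold change was 0.66, with 6 of 11 higher in MUT, against -0.21 for the other 67 members. Since low values in WT ICM cells chose these genes, nothing is read from the direction of that difference. By name 7 of the 11 are small subunit genes. The share of all genes past the same cut is not given here, so the pattern is not shown to be particular to the members. Across the 78 members, the share of WT ICM cells under 1 CPM had a Spearman rho of 0.029 with transcript GC content, 0.12 with transcript length and -0.49 with the level at E3.75. These genes share the same libraries, and the rho values are descriptions.

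Over all member and cell pairs, 8.45% (422 of 4992) were under 1 CPM in WT ICM and 3.54% (152 of 4290) in MUT ICM. In the 4 groups at E3.75 the share was 0.472% to 1.71%. The same share over all genes is not given here, so these values are not shown to be particular to the members. Genes detected in the median cell of an embryo averaged 8828 in WT ICM and 8898 in MUT ICM. At E3.75 the group means were 11047 to 11651. After thinning, 7.29% of pairs in WT ICM and 2.70% in MUT ICM had no read, and 0.472% to 1.42% at E3.75. The order was the same with and without thinning. Median depth was 5064704.5 counts in WT ICM cells and 3404703 in MUT ICM cells. The part of depth, or of the number of genes detected, in these shares was not tested.

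Spread between cells of the same embryo followed the stage. The SD of log2(CPM + 1) between cells within embryos, after thinning 160 cells to 1000000 reads, had a median over 77 members of 1.69 in WT ICM and 1.41 in MUT ICM. It was 0.575 in WT EPI, 0.614 in MUT EPI, 0.621 in WT PrE and 0.667 in MUT PrE. Unthinned medians were 1.64, 1.38, 0.539, 0.587, 0.582 and 0.654. The member Mrpl53 was left out for its low level. Cytoplasmic ribosomal protein genes were steadier in each group (0.82 in WT ICM and 0.216 to 0.230 at E3.75), and so were nuclear oxidative phosphorylation genes (1.1 in WT ICM). A background of 5541 genes with at least 10 CPM in each group varied more, with 2.39 in WT ICM, 1.96 in MUT ICM and 0.882 to 1.25 at E3.75. These sets differ in level and were not matched for it. In WT ICM the cytoplasmic ribosomal protein genes summed to 65067 CPM and the members to 11292 CPM. How far level sets the order of these SDs was not tested. Libraries of the 2 stages carry different title letters, so stage and library set cannot be told apart in these values.

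**Figure D4:**
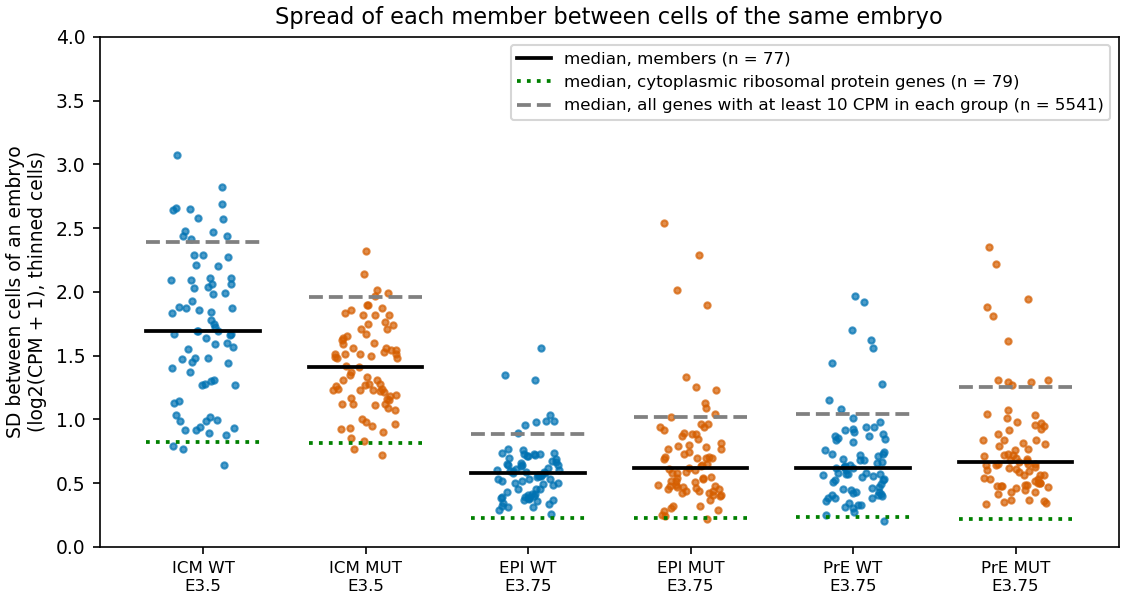
SD of log2(CPM + 1) between cells of the same embryo (vertical) for each of 77 members (points, blue for WT and orange for MUT) by group, from cells thinned to 1000000 reads; lines give medians of the members (solid), of 79 cytoplasmic ribosomal protein genes (dotted) and of 5541 genes (dashed). The members' median lies between the other 2 medians in each group, and is highest in the ICM groups.

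In EPI at E3.75 no member differed between genotypes past the threshold. edgeR called 0 of 78 members and 0 of 12298 genes (0%), and 0 members had an unadjusted p under 0.05, against 4.63% of all genes. Groups did not overlap for 2 members, 1 in each direction, against 7.77% of all genes. The members' median log2 fold change was -0.018, with 38 of 78 above 0, and 0.038 for all genes. The smallest p values were those of Mrpl39 (0.58, SE 0.318, unadjusted p = 0.103; 0.33 without MUT embryo 2) and Mrps31 (0.42, unadjusted p = 0.107) among higher members and Mrpl57 (-0.64, unadjusted p = 0.0516) and Mrpl48 (-0.68, unadjusted p = 0.154) among lower ones, all with an edgeR adjusted p of 1.0. Mrps31, a mitochondria-specific small subunit protein, was at 80.8, 101 and 94.99 CPM in WT and at 111, 116, 106 and 143 CPM in MUT, without overlap. Mrps30, the gene furthest apart in the ICM, was at 123, 102 and 125 CPM in WT EPI and 89.9, 159, 82.6 and 153 CPM in MUT EPI, where the groups overlapped (log2 fold change 0.11, SE 0.313, edgeR adjusted p = 1.0).

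In PrE edgeR also called 0 of 78 members and 0 of 11765 genes (0%). At an unadjusted p under 0.05 stood 2 members, both lower in MUT, against 4.63% of all genes, and 5 members were lower without overlap, against 6.71% of all genes for either direction. The median was -0.010 for the members and 0.027 for all genes. Mrps21, a bacterial-family small subunit protein, was at 116, 93.5 and 180 CPM in WT and 83.7, 79.8, 54.8 and 77.8 CPM in MUT, all lower (log2 fold change -0.83, SE 0.309, unadjusted p = 0.0279, edgeR adjusted p = 0.991). Mrpl40 was at 212, 188 and 273 CPM in WT and 135, 175, 169 and 108 CPM in MUT (-0.63, SE 0.245, unadjusted p = 0.0325, edgeR adjusted p = 1.0). The higher members with the smallest p were Mrps22 (0.77, unadjusted p = 0.0512) and Mrpl1 (0.85, unadjusted p = 0.0878). The cytoplasmic ribosomal protein genes had a median of -0.125 and the nuclear oxidative phosphorylation genes -0.115. The difference between the genotype effects in EPI and PrE was called for 0 of 78 members and 0 of 14220 genes (0%), with 1 member at an unadjusted p under 0.05 against 5.51% of all genes. That member was Mrps22 (-1.16, SE 0.424, unadjusted p = 0.0157, edgeR adjusted p = 0.751), and Mrps27, an RNA-binding small subunit protein, came next (-1.07, unadjusted p = 0.0797).

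Within a genotype, EPI and PrE cells came from the same embryos. Between these lineages the members' medians were close to 0 in WT (-0.0046, against 0.031 for all genes) and in MUT (0.038, against 0.019). edgeR called 0 of 78 members in WT, where 4 of 12733 genes were called (0.0314%), and 0 of 78 in MUT, where 177 of 10698 genes were called (1.65%). With the embryo as a block it again called 0 members, and 0 genes in WT and 74 in MUT. Members with an unadjusted p under 0.05 were 2 in WT, against 9.35% of all genes, and 4 in MUT, against 10.2%. Groups did not overlap for 7 members in WT (5 higher and 2 lower in EPI), against 18.5% of all genes, and for 6 in MUT (3 and 3), against 10.2%. Each of these 4 shares of the members was under that of all genes.

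Mrpl44, an RNase III-like protein of the large subunit, was lower in EPI than in PrE in both genotypes. In WT it was at 61.1, 60.6 and 88.0 CPM in EPI and 119, 125 and 134 CPM in PrE, without overlap (log2 fold change -0.87, SE 0.252, edgeR adjusted p = 0.286). In MUT it was at 91.81, 68.87, 77.0 and 99.21 CPM in EPI and 164, 131, 124 and 124 CPM in PrE, again without overlap (-0.66, SE 0.235, edgeR adjusted p = 0.305). Without WT PrE embryo 1, whose markers went against its label, the WT value was -0.89. DESeq2 called Mrpl44 in WT (DESeq2 adjusted p = 0.0337).

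Mrps24 was higher in EPI than in PrE of MUT embryos, at 241, 163, 179 and 232 CPM against 120, 134, 145 and 104 CPM, without overlap (0.73, SE 0.22, unadjusted p = 0.00855, edgeR adjusted p = 0.184). In WT the same gene gave 0.18 (SE 0.255, edgeR adjusted p = 0.98), with overlap. The next smallest p values in MUT were those of Mrps31 (0.79, edgeR adjusted p = 0.394) and Mrpl48 (-1.06, edgeR adjusted p = 0.38). In WT they were those of Mrpl1, the L1 stalk protein (0.91, edgeR adjusted p = 0.397), Mrps25 (0.715, unadjusted p = 0.0692) and Mrps21 (-0.66, unadjusted p = 0.075).

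**Figure D5:**
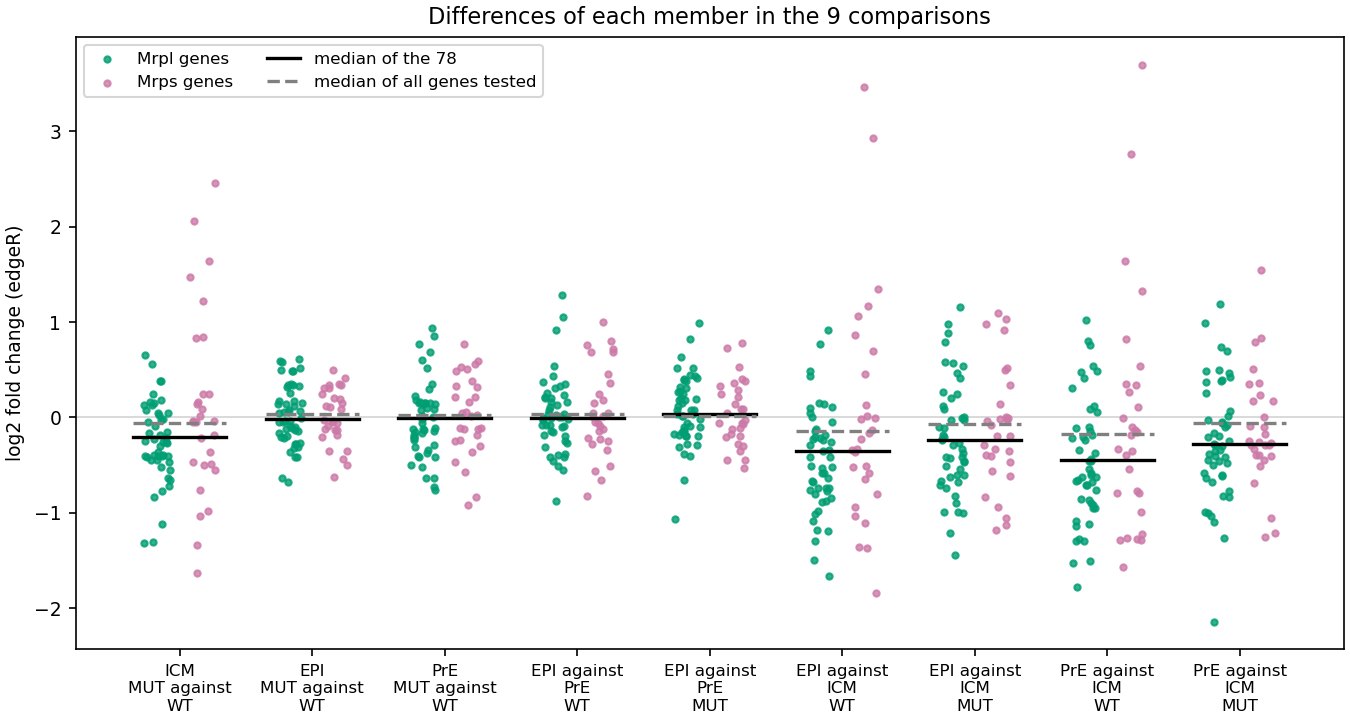
Fitted log2 fold change (vertical) of each Mrpl gene (green) and Mrps gene (pink) in the 9 comparisons, with the median of the 78 members (solid) and of all genes tested (dashed). Points spread most in the ICM and stage comparisons, where Mrps30 and Mrps24 are the 2 highest points in WT.

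The stage comparisons set the E3.75 lineages against the ICM of the same genotype. They share the ICM sums within a genotype, and they share those sums with the ICM genotype comparison. In EPI against ICM of WT embryos, edgeR called 0 of 78 members and 43 of 13972 genes (0.308%). At an unadjusted p under 0.05 stood 24 members, 4 higher and 20 lower in EPI, against 14.1% of all genes, and 18 did not overlap (5 higher, 13 lower), against 15.2%. These were again larger shares than among all genes, in members that come from the same embryos and are not independent. Their median was -0.35 against -0.14 for all genes, and -0.51 for Mrpl against -0.22 for Mrps genes. For cytoplasmic ribosomal proteins the median was -0.080 and for nuclear oxidative phosphorylation genes -0.19. These medians come from sums, in which deep cells weigh more. Limma-trend on embryo means, where each cell counts the same and values are averaged as log2(CPM + 1), gave a members' median of 0.42 and 0.68 for all genes. The direction against 0 thus turned with that method, and the members stayed below all genes. Which of its differences turned the sign was not tested. The summed level of the median cell was 9542 CPM in WT ICM and 9412 in WT EPI.

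PrE against ICM in WT gave like values: edgeR called 0 of 78 members and 46 of 13190 genes (0.349%). At an unadjusted p under 0.05 stood 19 members (4 higher, 15 lower), against 14.8% of all genes, and 17 did not overlap (6 higher, 11 lower), against 14.3%. The median was -0.44 against -0.175 for all genes, and with limma-trend 0.26 against 0.56. In MUT, EPI against ICM gave 0 of 78 members and 8 of 11733 genes called (0.0682%), 4 members at an unadjusted p under 0.05 (8.08% of all genes) and 4 without overlap, all higher in EPI (4.98%). PrE against ICM gave 0 of 78 members and 61 of 12040 genes called (0.507%), 7 at an unadjusted p under 0.05 (9.46%) and 4 without overlap, 3 higher and 1 lower (6.68%). The medians were -0.23 (all genes -0.064) and -0.28 (-0.058), and with limma-trend 0.30 (0.66) and 0.31 (0.54). Leaving out 1 ICM embryo moved the edgeR medians to -0.48 (without embryo 10) or -0.094 (without embryo 2) in EPI and to -0.517 (without embryo 10) or -0.115 (without embryo 23) in PrE.

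In WT embryos Mrps30 had the largest stage difference of the members in either lineage. Against the 5 WT ICM embryos at 1.47 to 22.6 CPM stood WT EPI at 102 to 125 CPM and WT PrE at 84.0, 125 and 191 CPM, with log2 fold changes of 3.47 (SE 0.691, edgeR adjusted p = 0.0695) and 3.70 (SE 0.744, edgeR adjusted p = 0.0734). In MUT, EPI lay at 82.6 to 159 CPM, overlapping the ICM at 29.5 to 88.7 (1.09, edgeR adjusted p = 0.539), and PrE at 252, 155, 154 and 115 CPM, above the ICM without overlap (1.55, SE 0.422, edgeR adjusted p = 0.15). For Mrps24 the WT differences were 2.93 (SE 0.633, edgeR adjusted p = 0.0794) in EPI and 2.76 (SE 0.668, edgeR adjusted p = 0.116) in PrE, with WT EPI at 197, 158 and 194 CPM and WT PrE at 182, 115 and 180 CPM, all above the WT ICM. Both genes passed the threshold in EPI against ICM when no low-count filter was used.

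Among members with lower CPM at E3.75, Mrps18b, one of 3 paralogs of bacterial S18, had the smallest unadjusted p in WT EPI. It stood at 272, 594, 310, 349 and 377 CPM in WT ICM and at 191, 120 and 140 CPM in WT EPI, without overlap (-1.36, SE 0.318, edgeR adjusted p = 0.0895). In WT PrE it was at 101, 136 and 227 CPM (-1.28, edgeR adjusted p = 0.176). Its paralog Mrps18c was at 100 to 346 CPM in WT ICM and 89.2 to 117 CPM in WT EPI, with overlap (-1.03, edgeR adjusted p = 0.264). The paralog Mrps18a, whose product sits in the large subunit, was at 61.7 to 153 CPM and 83.2 to 99.3 CPM. Each of the 3 proteins occupies its own place in the particle.

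Whether the stage difference itself differed between genotypes was tested as an interaction. For EPI against ICM edgeR called 0 of 78 members and 0 of 15756 genes (0%), with 6 members at an unadjusted p under 0.05 against 9.25% of all genes. For PrE against ICM it called 0 of 78 and 0 of 15614 genes (0%), with 4 members against 9.2%. The smallest p in the first was that of Mrpl39 (1.68, SE 0.47, unadjusted p = 0.002, edgeR adjusted p = 0.23). Mrpl39 was higher in MUT EPI (192, 322, 142 and 244 CPM) than in MUT ICM without overlap, and in WT EPI (124, 186 and 158 CPM) it lay within or below the WT ICM range. Mrps30 followed with -2.38 (SE 0.799, unadjusted p = 0.00776, edgeR adjusted p = 0.3). In PrE the smallest p values were those of Mrps24 (-2.41, unadjusted p = 0.0126, edgeR adjusted p = 0.419) and Mrps30 (-2.13, unadjusted p = 0.0163, edgeR adjusted p = 0.427). These differences are built from the ICM sums that also set the genotype comparison, so they are no second measurement of it.

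Members with special functions were fixed for description. Mrpl12 was at 242 to 360 CPM in WT ICM, 93.0 to 374.6 in MUT ICM and 173 to 378 at E3.75. Mrps12, which carries the conserved loop of the decoding centre, was at 67.5 to 162 CPM in WT ICM and 64.4 to 124 CPM at E3.75. Mrpl58 (ICT1), which frees stalled peptides, was at 71.2 to 176 CPM in WT ICM, 73.8 to 140 in WT EPI and 55.9 and 65.7 CPM in 2 WT PrE embryos, with the single-cell sum at 5.24. With embryo sex in the model it was the only member called in PrE, higher in MUT, as were 217 of 11765 genes in either direction (1.84%). All 4 MUT embryos at E3.75 are male and 1 WT embryo is, so that genotype estimate rests on the WT sum of 1 cell at 5.24 CPM, assumed to vary like the others. Mrpl23, the neighbour of the imprinted H19 and Igf2 cluster, was at 24.6 to 44.0 CPM in WT ICM and 12.7 to 80.4 in MUT ICM. Mrps36 was at 30.9 to 69.0 CPM in WT ICM and 36.5 to 47.0 CPM in WT EPI. None of these had an adjusted p under 0.05 in edgeR's comparisons.

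A further 5 mitoribosomal proteins have other symbols. Gadd45gip1 (CRIF1) had 7.89 ± 6.32 CPM (SD, n = 5) in WT ICM, 34.1 ± 14.9 (n = 5) in MUT ICM and 45.1 ± 6.73 (n = 3) in WT EPI, an order like that of Mrps30, noted after the values were seen. None of the 5 was called in the 9 comparisons. The 12S ribosomal RNA of the small subunit, mt-Rnr1, fell between ICM and E3.75 in WT embryos, from 6706 ± 967.5 CPM (SD, n = 5) to 657 ± 383 (n = 3) in EPI and 761 ± 319 (n = 3) in PrE. Its log2 fold changes were -3.38 (SE 0.372, edgeR adjusted p = 0.0127) and -3.13 (SE 0.329, edgeR adjusted p = 0.00855), and in MUT -2.45 (edgeR adjusted p = 0.234) and -2.56 (edgeR adjusted p = 0.117). The 16S RNA mt-Rnr2 was at 47887 CPM in WT ICM and 28555 CPM in WT EPI (edgeR adjusted p = 0.145). Stage and title letter cannot be told apart in this result either.

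Genes that serve the mitochondrial ribosome were also without calls. In the 9 comparisons, edgeR called 0 of 30 genes of ribosome assembly and rRNA modification, 0 of 16 translation factors, 0 of 22 aminoacyl-tRNA synthetases and 0 of the 12 or 13 mitochondrially encoded mRNAs tested. In the ICM genotype comparison the medians of these lists were -0.037, -0.095, 0.24 and -0.25 (against -0.054 for all genes), and in EPI against ICM of WT embryos 0.49, 0.029, 0.0065 and -0.81 (against -0.14). The summed level of mitochondrially encoded mRNAs was 57272 ± 10226 CPM (n = 5) in WT ICM, 37755 ± 11768 (n = 5) in MUT ICM and 37346 ± 5154 (n = 3) in WT EPI. Summed levels of assembly genes were 1104 ± 239, 1056 ± 227 and 1153 ± 56.9 CPM in the same groups.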

How the data were processed

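The authors deposited whole-number counts per gene, with no normalization, for 171 cells, per the deposited table. STAR, HTSeq and the build mm10 were used, per the submitters' processing notes; no label used here gives their versions, the strand setting or how libraries were made. Overlapping or antisense genes and pseudogene copies may share reads. The 5 Mrp pseudogenes in the table (0 to 3949 counts each) were left out. Symbols, positions and exon lengths came from GENCODE vM21 of the same build, which matched 49412 of 49671 identifiers. Unmatched ones held 0.0101% of counts. Identical columns were looked for and none found, no cell was removed and doublets were not searched for.

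Counts were summed per embryo and lineage. An embryo was called male where its Y-linked counts (Ddx3y, Eif2s3y, Kdm5d, Uty) exceeded Xist. Each comparison was fitted over all genes with the quasi-likelihood test of edgeR (version 4.0.16 under R 4.3.3, TMM, filterByExpr with a minimum count of 10, robust), Benjamini-Hochberg adjustment over all genes and a threshold of 0.05. The SE is the absolute fold change over the square root of F, so it restates the test. Interactions were contrasts of group effects. Other tools were limma 3.58.1, DESeq2 1.42.0, Python 3.11.15, numpy 2.4.6, pandas 2.3.3, scipy 1.17.1 and matplotlib 3.10.9. The edgeR step was tested on simulated data.

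Members, lists, tests and named-gene rule were chosen with earlier results of these data known. Named members are, per genotype or lineage comparison, the 2 with the smallest p in each direction (none passed the threshold), per interaction the 2 smallest p values, the 5 highest and 5 lowest per length, and Mrps36, Mrpl12, Mrps12, Mrps18a, Mrps18b, Mrps18c, Mrpl23, Mrpl58 and Mrps30, and in other lists genes past the threshold. Stage values of these, and other names, were added after values were seen.

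EPI and PrE sums with the same number come from the same embryo. Their deviations correlated across genes at 0.173 to 0.256 in WT and 0.0308 to 0.174 in MUT, and a replicate block was tried (0 members called). Reads without molecular identifiers include PCR copies, so counting error understates the true error.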

Additional observations from a re-analysis of the deposited data

Results flagged for a closer look

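In 120 groups of 4 or 5 embryos, the highest or lowest embryo was set against its neighbour (Dixon's 95% value), which chance exceeds in about 1 of 20 groups. It was exceeded in 4. For Mrps24, MUT ICM embryo 23 was at 231.2 CPM, above the next at 79.87 CPM. For Mrpl57, WT ICM embryo 22 was at 459.4 CPM, above the next at 140.6 CPM. For Mrps31, MUT PrE embryo 1 was at 37.56 CPM, below the next at 78.06 CPM. For Mrps12, MUT EPI embryo 1 was at 124.3 CPM, above the next at 80.36 CPM.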

How the results depend on the processing

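Percentages are the share of all genes called in the same fit. With DESeq2, 1 member was called in the ICM genotype comparison (Mrps30; 0.88%), 1 between lineages in WT (Mrpl44; 5.74%) and 1 in MUT (Mrps24; 6.04%), 10 in EPI against ICM of WT (2 higher, 8 lower, 7.77%), 7 in PrE against ICM of WT (2 higher, 5 lower, 9.04%), 2 in PrE against ICM of MUT (Mrpl49 and Mrps30, 4.66%) and 1 in the EPI stage interaction (Mrpl39, 3.18%). Limma-trend on embryo means called 12 in EPI against ICM of WT (4048 of 13972 genes) and 9 in PrE (15.7%), all higher and both smaller shares than among all genes, and 2 in PrE against ICM of MUT (Mrpl10 and Mrps30, 5.23%). Without a low-count filter, 2 (Mrps24 and Mrps30, 0.346%) and 1 (Mrps30, 0.499%) were called in EPI and PrE against ICM of WT. The letter gave 5 calls in the ICM (4.87%), and embryo sex 1 in PrE (Mrpl58, 1.84%), a fit whose genotype term rests on the 1 male WT sum of 1 cell. Leaving out each embryo gave 0 to 2 members in EPI against ICM of WT (2, Mrpl35 and Mrps24, without ICM embryo 13, 1.18%) and 0 to 1 in PrE against ICM of MUT (Mrpl35 without ICM embryo 10, 1.5%). In the other comparisons it gave 0. The ICM genotype median ran from -0.331 to 0.0747 over these fits. With a replicate block, 0 members were called in the genotype, lineage and interaction fits that allow one; embryo numbers shared between genotypes name different embryos. DESeq2's size factors in edgeR (RLE) moved the ICM median to -0.0876 (all genes 0.0325), with 0 members called. Limma-trend called Mrps27 higher in EPI against ICM of WT, although edgeR's log2 fold change was -0.329 (adjusted p = 0.836). The cause of these differences was not tested.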
